A study of Homo sapiens with 6 samples.

Results

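The genes described here are the protein-coding histone genes of Huh7 cells, a human hepatocellular carcinoma line, with and without knockdown of SRSF10. They were chosen by gene symbol alone, from the rows labelled protein-coding whose symbols begin as the names of linker histone H1, core histones H2A, H2B, H3 and H4, and the macroH2A proteins do. The rule took 82 genes out of 60623, of which 19930 were labelled protein-coding. Of the 82 genes, 66 carry the names of the histone clusters (H2AC, H2BC, H3C, H4C and H1-1 to H1-6) and are called clustered. The other 16, mostly solitary genes such as H2AX, H2AZ1, H2AZ2, H3-3A, H3-3B and MACROH2A1, are called variant genes. In GENCODE release 29 on GRCh38, 53 clustered genes lie on chromosome 6 between 25726132 and 27893843, a span of 2.17 Mb, and 11 lie on chromosome 1 between 149782689 and 149887916. H3C2 and H3C3 were not found in that release by identifier.

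RNA-seq was done on 6 libraries. The 3 control libraries have the genotype label WT and titles beginning with NC. The 3 knockdown libraries are labelled as cells with lowered SRSF10, an SR protein that regulates splicing, and the series title names a short hairpin RNA against it. No label says whether the control cells carried a control hairpin, whether 1 hairpin or clone was used, or whether the replicates were separate cultures, so the p-values refer only to how these libraries varied. The comparison asks how the transcriptome differs when SRSF10 is lowered.

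Histones package DNA into nucleosomes. The clustered genes are switched on together as DNA is copied in S phase, they mostly have no introns, and their main messages end not in a poly(A) tail but in a conserved stem-loop bound by the protein SLBP. Variant genes are mostly spliced and polyadenylated, are transcribed throughout the cell cycle, and encode proteins that replace the replication-coupled histones at particular places in chromatin. Some clustered genes also make longer polyadenylated messages that run past the stem-loop.

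The values are FPKM, fragments scaled to the length of the gene model and to the mapped fragments of the library. The fragment totals recovered from the steps between low values were 12713618 to 14379727 per library. SRSF10 was at 18.6, 19.5 and 19.8 FPKM in control replicates 1 to 3 and 10.6, 10.8 and 10.6 in knockdown replicates 1 to 3, which is 44.8% lower (limma log2 fold change -0.80, adjusted p = 0.000166). An exact two-sided permutation test gave p = 0.1, the smallest that 3 against 3 libraries allow. Genes with at least 1 FPKM in at least 3 libraries were tested, 12191 in all. At an adjusted p under 0.05, 12.6% of them were called higher in the knockdown and 12.5% lower, and the median log2 fold change was -0.01. Of 12 liver markers 4 passed the filter. The summed level of all 12 was 41.1 to 45.8 FPKM in the controls and 44.6 to 46.6 in the knockdown. ALB was at 0.115 to 0.172 FPKM in the controls and 0.434 to 0.814 in the knockdown, SERPINA1 at 0.0753 to 0.144 and 0.539 to 0.674, and APOA2, TTR and GPC3 were listed at 0, while APOH was at 24.1 to 28.7 FPKM and the epithelial marker KRT8 at 422 to 465 FPKM. No immune or fibroblast marker passed the filter. The summed level of 5 fibroblast markers was 0.0605 to 0.117 FPKM in the controls and 0.548 to 0.802 in the knockdown, with COL1A1, COL3A1 and DCN higher in every knockdown library than in every control. That of 4 immune markers was 0.0899 to 0.168 and 0.117 to 0.148. Of 3 endothelial markers PECAM1 alone passed, at a mean of 5.28 FPKM in the controls and 6.85 in the knockdown (limma adjusted p = 0.0373). The part of these markers in the results below was not tested.

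The 3′ ends of the annotated messages show the histone stem-loop in some members. The 16-base motif of the histone stem-loop was searched on the sense strand of every transcript of GENCODE release 29. It fixes the GG and CC of the ends, the CT and AG of the inner stem and the T bases of the loop TNTN. N is any base, and the other bases are free. It was found in 105 of 19843 protein-coding genes outside the histone rule (0.529%). Among the 11 clustered genes that passed the filter it was found in 6, and among the 9 variant genes in H2AX only. Those 7 sequences are printed 5′ to 3′ with the 16 bases of the motif in capitals and 5 bases on each side.
H2AC6: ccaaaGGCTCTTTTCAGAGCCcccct
H2BC21: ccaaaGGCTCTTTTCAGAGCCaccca
H2BC4: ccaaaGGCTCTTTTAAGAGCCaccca
H2BC5: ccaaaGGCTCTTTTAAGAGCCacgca
H4C8: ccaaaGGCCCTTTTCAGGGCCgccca
H4C9: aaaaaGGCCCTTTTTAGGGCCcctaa
H2AX: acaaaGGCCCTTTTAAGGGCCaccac
Of these, the 4 clustered H2A and H2B genes share the bases of their stem, and both H4 genes and H2AX share another stem. The annotated message also continues past the motif. Of the transcripts that hold the motif, the one that reaches farthest past it goes on for 39 bases in H2BC5, 116 in H2BC4, 212 in H4C9, 1044 in H2AX, 1128 in H2AC6, 1655 in H4C8 and 1729 in H2BC21. The other 5 tested clustered genes have no match in their annotated transcripts. For H1-2, H2BC12 and H2AC20 the annotation stops at the stop codon, so that a stem-loop could not be seen there. The same holds for 29 of the 31 clustered genes without a match that did not pass the filter. H4C3 is annotated for 51 bases past the stop codon, while in H2AC18 the motif began 67 bases past it. The H2BC11 transcript of 381 bases stops at the stop codon, and the others continue for 343 and 569 bases. Absence of a stem-loop was not shown for H4C3 or H2BC11 either.

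Promoters of the clustered genes share motifs that most promoters lack. Sequences from 250 bases before to 50 after each start were taken from RefSeq (GRCh38.p14), in which 73 of the 82 genes were matched by symbol. Motifs were searched on both strands. The octamer ATTTGCAT, a site for the transcription factor OCT1, was in 14 of 17 clustered H2B promoters and 11 of 15 clustered H2A promoters, against 1.80% of 27305 promoters of all genes. The H2A and H2B counts are not independent. Some of these genes lie head to head, as H2BC4 and H2AC6 do with 218 bases between them, so the same octamer can count for both. The element AAACACA, known from H1 promoters, was in 6 of 6 clustered H1 promoters and in 5.76% of all. CCAAT was in 52 of 61 clustered promoters and in 35.7% of all, and TATAAA in 41 of 61 and in 12% of all. The 120 bases before the start are printed for 3 genes that fell in the knockdown and, last, for H2BC21, which was not called. Capitals mark these 4 motifs, with CCAAT also in its form on the other strand. All 4 genes are on the minus strand, at chr6:26056471-26056590 (H1-2), chr6:27146859-27146978 (H2BC12), chr6:27132796-27132915 (H2BC11) and chr1:149886683-149886802 (H2BC21).
H1-2: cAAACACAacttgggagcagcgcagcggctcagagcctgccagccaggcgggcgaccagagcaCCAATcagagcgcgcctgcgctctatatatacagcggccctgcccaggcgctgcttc
H2BC12: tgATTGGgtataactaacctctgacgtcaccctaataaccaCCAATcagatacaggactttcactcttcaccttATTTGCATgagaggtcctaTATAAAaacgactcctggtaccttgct
H2BC11: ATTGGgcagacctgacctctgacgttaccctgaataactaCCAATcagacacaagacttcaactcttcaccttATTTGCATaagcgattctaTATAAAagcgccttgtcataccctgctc
H2BC21: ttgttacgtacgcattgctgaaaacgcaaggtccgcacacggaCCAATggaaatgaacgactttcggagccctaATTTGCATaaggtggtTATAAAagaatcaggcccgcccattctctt
H2BC21 holds the same 3 motifs as H2BC12 and H2BC11. The match of a motif is a description of these letters and was not tied to a change in level.

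Most histone genes were close to or under the limit of detection. Of the 82 genes, 14 were listed at 0 in every library, 34 were above 0 in every library, and 57 were under 1 FPKM in every library. The filter left 20 genes. Among clustered genes 11 of 66 passed, made up of 1 of 6 H1 genes, 2 of 16 H2A genes, 5 of 17 H2B genes, 0 of 13 H3 genes and 3 of 14 H4 genes. Among variant genes 9 of 16 passed. H1-7, H1-8, H3-2, H3-4, H3-5, H4-16 and MACROH2A2 did not pass. MACROH2A2, which encodes the second macroH2A protein, was at 0.0405 to 0.191 FPKM, and H4-16, a solitary H4 gene with a stem-loop, was at 0.513 to 0.824 FPKM.

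A further 5 clustered genes reached 1 FPKM in 1 or 2 libraries only. Just inside the filter, the H2A gene H2AC20 was at 2.32, 1.61 and 1.89 FPKM in control replicates 1 to 3 and 1.65, 1.88 and 0.803 in knockdown replicates 1 to 3, from 4 to 13 fragments. Just outside it, the H2A gene H2AC8 was at 0.820, 2.16 and 1.02 FPKM in control replicates 1 to 3 and 0.561, 0.866 and 0.461 in knockdown replicates 1 to 3, from 3 to 14 fragments. H2AC8 was not tested, and the precision of both genes is limited by these few fragments. H4C15 was picked out after its values were seen: it had 24 fragments in knockdown replicate 2 and 0 to 3 in each other library. Of its annotated transcripts, the 610-base form is identical to a transcript of H4C14, and the annotated transcript of H3C14 is identical to that of H3C15, so values of these genes depend on how shared reads were assigned. Near-identical coding sequences are common throughout the clusters, and how reads that match several of them were counted is not given in the sources used here.

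In the knockdown, 6 of the 11 tested clustered genes fell (54.5%, against 12.5% of all tested genes) and 0 rose. They were the linker histone gene H1-2, the H2B genes H2BC12, H2BC5 and H2BC11, the H2A gene H2AC6 and the H4 gene H4C9. The median log2 fold change of the 11 genes was -0.52, against -0.01 over all tested genes, and 10 of the 11 values were below 0. In 7 of the 11, every control library was above every knockdown library, which held in this direction for 22.0% of all tested genes. The 9 tested variant genes had a median of -0.09, with 2 higher (22.2%, against 12.6% of all tested genes), H2AX and H2AZ2, and 0 lower. Those 2 were also the variant genes with every knockdown library above every control, as were 20.6% of all tested genes. Another 2, H3-3B and, by a narrow margin, H1-10, had every control above every knockdown library. Over the 20 tested histone genes 8 were called in either direction, against 25.2% of all tested genes, and 11 had groups that did not overlap, against 42.7%. In bulk RNA, fewer cells that express a histone gene and less RNA per cell cannot be told apart.

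**Figure D1:**
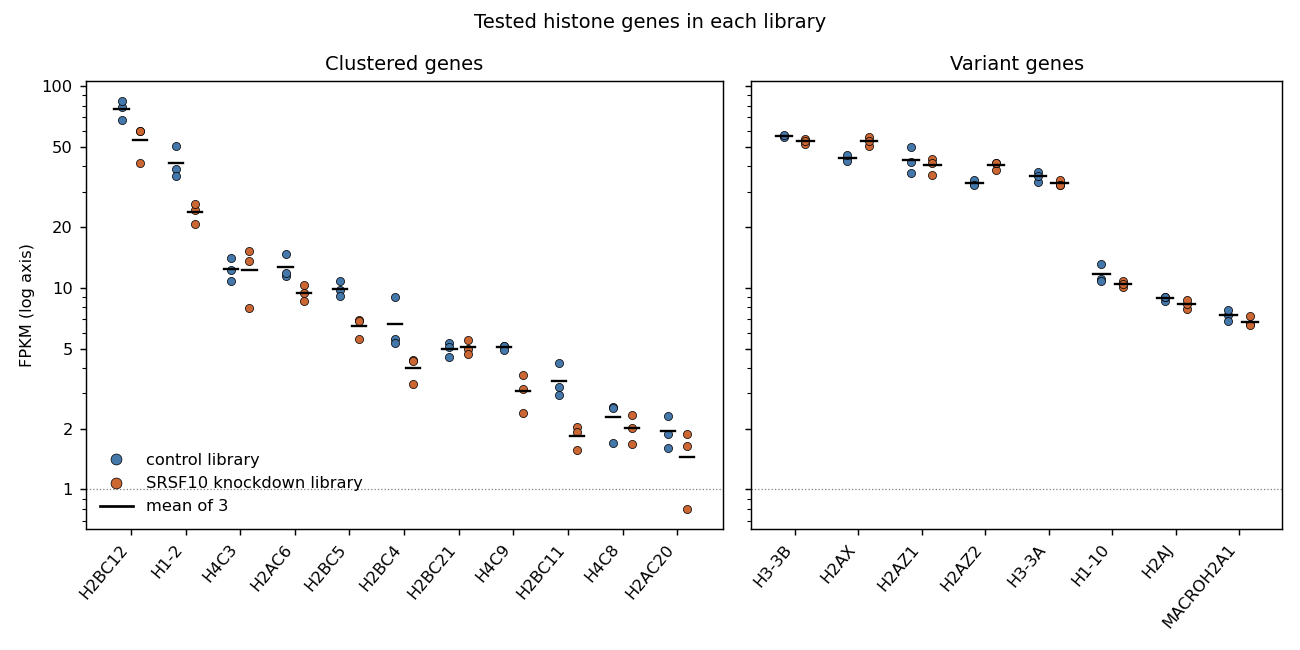
FPKM on a log axis of the 11 clustered (left) and 8 of the 9 variant (right) histone genes that passed the filter, with a point for each of the 3 control and 3 SRSF10 knockdown libraries, a bar at each mean of 3 and a dotted line at 1 FPKM. Among the clustered genes, all control points lie above all knockdown points for H1-2, H2BC12, H2BC5, H2BC4, H2BC11, H2AC6 and H4C9. Among the variant genes they lie below them for H2AX and H2AZ2 and above them for H3-3B and, narrowly, H1-10.

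H1-2 is the only clustered linker histone gene that passed the filter, and linker histones bind DNA where it enters and leaves the nucleosome. It lies on chromosome 6 from 26055787 to 26056428, minus strand. H1-2 (ENSG00000187837) was at 39.0, 50.2 and 36.0 FPKM in control replicates 1 to 3 and 20.7, 24.3 and 26.0 in knockdown replicates 1 to 3. All 3 knockdown libraries were below all 3 controls, and the highest control was replicate 2. Its mean fell from 41.7 ± 7.51 to 23.6 ± 2.70 FPKM (SD, n = 3 each; log2 fold change -0.79 with SE 0.132, limma adjusted p = 0.00688). The call held in each of the 14 alternative analyses, with adjusted p between 8.64e-05 and 0.0315. The coefficient of variation between controls was 18.0%, where counting error alone would give 5.26% at 313 to 410 fragments per control library. The knockdown libraries had 186 to 213 fragments. The other 5 clustered H1 genes were under 1 FPKM in every library.

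H2BC12 gave the highest mean of the 66 clustered genes and encodes a core histone H2B. It lies on chromosome 6 from 27146418 to 27146798, minus strand, and its model of 381 bases is the coding sequence alone, so its FPKM cannot be set closely against that of a gene whose model includes untranslated ends. H2BC12 (ENSG00000197903) was at 79.2, 84.0 and 67.6 FPKM in control replicates 1 to 3 and 41.6, 60.0 and 60.2 in knockdown replicates 1 to 3. The groups did not overlap, and knockdown replicate 1 was lower than the other two. Its mean fell from 77.0 ± 8.43 to 53.9 ± 10.7 FPKM (log2 fold change -0.52 with SE 0.152, limma adjusted p = 0.0468). The call was close to the threshold. It did not hold without control replicate 1 (limma adjusted p = 0.119) or 2 (0.123) and without knockdown replicate 1 (0.0512), 2 (0.0577) or 3 (0.0586), with no filter on low values (0.15) and after quantile normalization (0.0508), with log2 fold changes from -0.61 to -0.35.

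The H2B gene H2BC5, on chromosome 6 from 26158146 to 26171349, plus strand, was at 9.74, 10.7 and 9.15 FPKM in control replicates 1 to 3. In the knockdown it was at 6.89, 5.57 and 6.83 FPKM. All 3 knockdown libraries lay below the lowest control. Its mean fell from 9.88 ± 0.806 to 6.43 ± 0.747 FPKM (log2 fold change -0.55 with SE 0.0886, limma adjusted p = 0.00578), and the call held in all 14 alternatives. The H2B gene H2BC11, on the minus strand of chromosome 6 from 27125897 to 27132750, was at 3.22, 4.22 and 2.95 FPKM in control replicates 1 to 3 and 2.03, 1.93 and 1.57 in knockdown replicates 1 to 3. Those groups did not overlap either, though only 19 to 51 fragments stood behind each value. Its mean fell from 3.47 ± 0.669 to 1.84 ± 0.245 FPKM (log2 fold change -0.64 with SE 0.121, limma adjusted p = 0.0101), and the call held in all 13 alternatives that tested it. Log2 fold changes are of FPKM + 1, which understates changes of low genes. As a share of the control mean, H2BC11 was 46.8% lower and H1-2 43.4% lower.

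H2BC4 and H2AC6 lie head to head on chromosome 6 with 218 bases between them, an H2B and an H2A gene read in opposite directions. H2AC6, from 26124145 to 26139116, was at 11.4, 14.7 and 11.8 FPKM in control replicates 1 to 3 and 9.38, 10.3 and 8.59 in knockdown replicates 1 to 3. The highest knockdown library lay below the lowest control. Its mean fell from 12.7 ± 1.80 to 9.42 ± 0.859 FPKM (log2 fold change -0.38 with SE 0.102, limma adjusted p = 0.0342). It was not called without control replicate 2 (limma adjusted p = 0.0518), knockdown replicate 1 (0.0869) or knockdown replicate 3 (0.104) and with no filter (0.109). H2BC4, from 26114873 to 26123926, was at 5.59, 9.05 and 5.31 FPKM in control replicates 1 to 3 and 3.34, 4.40 and 4.32 in knockdown replicates 1 to 3. These groups did not overlap, and control replicate 2 stood well above the other two. The log2 fold change of H2BC4 was -0.58, with a 95% interval from -1.02 to -0.14, and it was not called (limma adjusted p = 0.0611). It was called with a filter of 5 FPKM (0.0348), without control replicate 3 (0.0493) and when the recovered fragments were tested with limma voom (0.0301), which called 15.7% of all genes lower and 15.5% higher.

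The remaining H2B gene that passed, H2BC21, and the H2A gene H2AC20 are another head-to-head pair, 322 bases apart on chromosome 1. H2BC21, from 149884459 to 149886652, was at 4.53, 5.31 and 5.08 FPKM in control replicates 1 to 3 and 4.98, 5.49 and 4.71 in knockdown replicates 1 to 3. The groups overlapped almost wholly. The log2 fold change of H2BC21 was 0.02, with a 95% interval from -0.15 to 0.19 (limma adjusted p = 0.866), so its interval lies above the values fitted for H2BC12, H2BC5 and H2BC11. H2AC20 had a log2 fold change of -0.29, with an interval from -0.73 to 0.16 (limma adjusted p = 0.313). The difference between the genes of chromosome 1 and those of chromosome 6 was not tested. All 6 clustered genes that fell lie on chromosome 6, where 9 of the 11 tested clustered genes are. The ratio of H2BC12 to H2BC21 in FPKM was 17.5, 15.8 and 13.3 in control replicates 1 to 3 and 8.36, 10.9 and 12.8 in knockdown replicates 1 to 3, higher in every control than in every knockdown library.

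Among the H4 genes, which encode the least variable of the core histones, H4C9 fell. H4C9, on chromosome 6 from 27138588 to 27139881, plus strand, was at 5.16, 5.17 and 4.91 FPKM in control replicates 1 to 3 and 3.70, 2.38 and 3.15 in knockdown replicates 1 to 3. The controls lay within a narrow range and all 3 knockdown libraries below it. Its mean fell from 5.08 ± 0.148 to 3.08 ± 0.660 FPKM (log2 fold change -0.59 with SE 0.115, limma adjusted p = 0.0119), which held in all 13 alternatives that tested it. H4C3, the H4 gene of highest level, was at 14.1, 12.3 and 10.9 FPKM in control replicates 1 to 3 and 13.6, 15.2 and 7.92 in knockdown replicates 1 to 3. The knockdown libraries of H4C3 fell on both sides of the controls. Its log2 fold change was -0.06 with an interval from -0.58 to 0.46 (limma adjusted p = 0.879), and the difference between H4C3 and H4C9 was not tested. H4C8 was at 2.57, 2.55 and 1.71 FPKM in control replicates 1 to 3 and 1.68, 2.34 and 2.03 in knockdown replicates 1 to 3, with overlapping groups (limma adjusted p = 0.597).

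**Figure D2:**
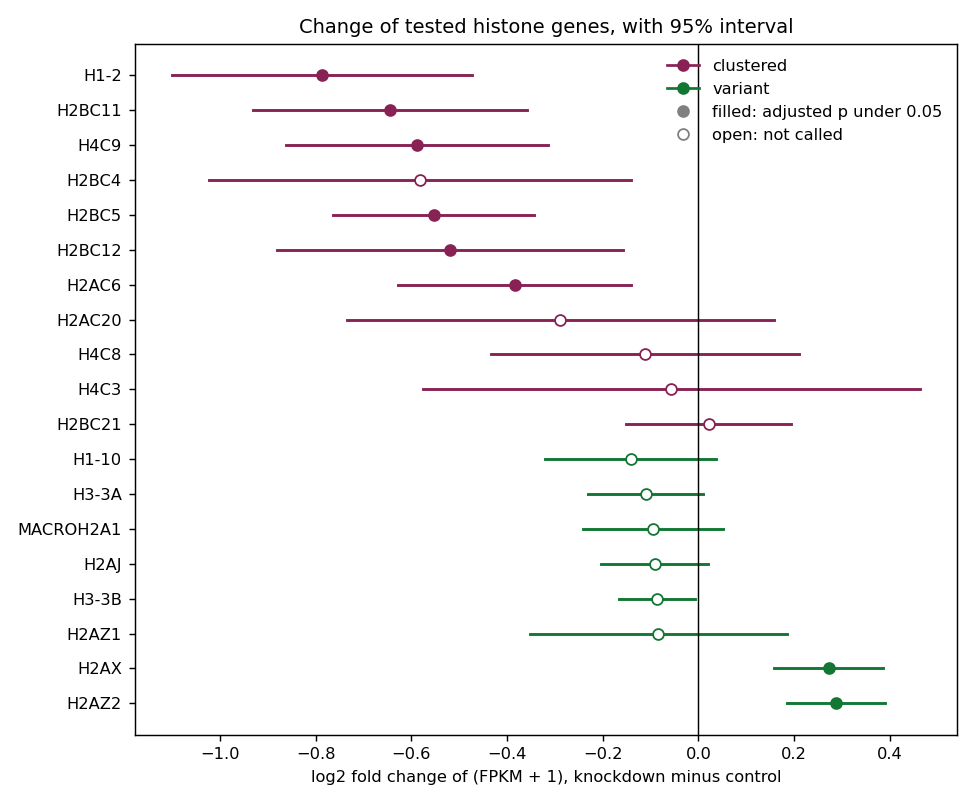
Log2 fold change of (FPKM + 1), knockdown minus control, of the 11 clustered and 8 of the 9 variant histone genes tested, with 95% intervals from limma as lines. Filled points passed an adjusted p of 0.05 and open points did not; the 6 filled clustered genes lie between -0.79 and -0.38, and the 2 filled variant genes lie at 0.27 and 0.29.

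Among the variant genes, H2AX and H2AZ2 rose. H2AX encodes the H2A protein that is phosphorylated around DNA breaks, and its gene is the variant that makes both a stem-loop and a longer polyadenylated message. H2AX (ENSG00000188486), on chromosome 11 from 119093854 to 119095467, was at 44.3, 42.5 and 45.5 FPKM in control replicates 1 to 3 and 56.2, 50.6 and 53.6 in knockdown replicates 1 to 3. Every knockdown library was above every control. Its mean rose from 44.1 ± 1.49 to 53.5 ± 2.82 FPKM, which is 21.3% higher (log2 fold change 0.27, SE 0.0476, limma adjusted p = 0.00792), and the call held in all 14 alternatives. How much of the H2AX signal came from either form of the message cannot be read from values per gene.

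H2AZ2 encodes H2A.Z.2, the sister form of H2A.Z, a variant found around promoters. H2AZ2 (ENSG00000105968), on chromosome 7 from 44826791 to 44848083, was at 32.8, 34.2 and 32.3 FPKM in control replicates 1 to 3 and 38.6, 41.7 and 41.7 in knockdown replicates 1 to 3. Those groups were also separate. Its mean rose from 33.1 ± 0.954 to 40.6 ± 1.80 FPKM, 22.7% higher (log2 fold change 0.29, SE 0.0433, limma adjusted p = 0.00466), again in all 14 alternatives. The gene of the other form, H2AZ1, was at 42.2, 49.9 and 37.1 FPKM in control replicates 1 to 3 and 36.1, 43.6 and 41.6 in knockdown replicates 1 to 3. H2AZ1 varied more among the controls, with a coefficient of variation of 14.9% where counting error alone would give 2.75%. Its log2 fold change was -0.08 with an interval from -0.35 to 0.19 (limma adjusted p = 0.639), and the difference between H2AZ1 and H2AZ2 was not tested.

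The genes of histone H3.3, the H3 variant placed outside replication, were near the same level in both groups. H3-3B was at 56.3, 55.7 and 57.5 FPKM in control replicates 1 to 3 and 51.6, 54.5 and 53.5 in knockdown replicates 1 to 3, so that every knockdown library was below every control. The difference was small, a log2 fold change of -0.09 with an interval from -0.17 to -0.01, and was not called (limma adjusted p = 0.109). H3-3A was at 37.7, 33.4 and 36.0 FPKM in control replicates 1 to 3 and 34.1, 32.5 and 32.2 in knockdown replicates 1 to 3 (log2 fold change -0.11, limma adjusted p = 0.162). Exons of H3-3A, H3-3B, H2AZ1, H1-10 and MACROH2A1 overlap those of other genes on the opposite strand, and the strand setting of the counting is not given in the sources used here.

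Of the remaining variant genes none was called. The linker histone gene H1-10 was at 13.2, 11 and 10.8 FPKM in control replicates 1 to 3 and 10.1, 10.8 and 10.4 in knockdown replicates 1 to 3 (log2 fold change -0.14, limma adjusted p = 0.223). H1-10 lies on chromosome 3, where 43.9% of 718 tested genes were lower and the median log2 fold change was -0.19; its part in the value of H1-10 was not tested. H2AJ, an H2A gene that makes a polyadenylated message, had a log2 fold change of -0.09 (limma adjusted p = 0.209). MACROH2A1, whose protein carries a large extra domain and is known from silent chromatin, was at 7.33, 6.81 and 7.80 FPKM in control replicates 1 to 3 and 7.21, 6.61 and 6.53 in knockdown replicates 1 to 3 (limma adjusted p = 0.307). The intervals of these genes leave room for small changes in either direction.

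The summed FPKM of all 66 clustered genes was 189, 213 and 170 in control replicates 1 to 3 and 119, 146 and 135 in knockdown replicates 1 to 3. Every knockdown library was below every control. The mean went from 190 ± 21.7 to 133 ± 13.6, which is 70.0% of the control mean. H1-2 and H2BC12 made up 52.4% to 63.8% of the sum, and without them the sum was 71.7 ± 6.43 in the controls against 55.7 ± 6.42 in the knockdown. The 55 clustered genes that did not pass the filter together gave 12.3 ± 0.644 and 10.2 ± 1.74. The sum of the 16 variant genes was 297, 293 and 292 in control replicates 1 to 3 and 295, 299 and 296 in knockdown replicates 1 to 3. The ratio of the clustered to the variant sum was therefore 0.634, 0.728 and 0.582 in the controls and 0.403, 0.488 and 0.456 in the knockdown, without overlap. These sums rest on the gene models, many of which hold the coding sequence only.

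The histone types differed in how much of their signal came from the clusters. For H2B all of it did, since the rule holds no variant H2B gene, and for H4 95.3% to 97.7% did. For H3 the clustered share was 2.47% to 3.25% and for H2A 7.22% to 13.1%, so that H3-3A, H3-3B, H2AX, H2AZ1 and H2AZ2 carried most of the signal. For H1 the clustered share was 35.8% to 45.8% in the controls and 25.3% to 31.8% in the knockdown. The clustered H1 sum was 42.3 ± 7.35 FPKM in the controls and 24.3 ± 2.87 in the knockdown, and the clustered H2B sum 105 ± 11.1 and 74.1 ± 11.2. The clustered H2A sum was 18.6 ± 2.47 and 13.9 ± 1.84. The H4 sum of 21.5 ± 2.10 and 18.3 ± 4.34 overlapped between groups, as did the clustered H3 sum of 2.78 ± 0.383 and 2.80 ± 0.104.

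**Figure D3:**
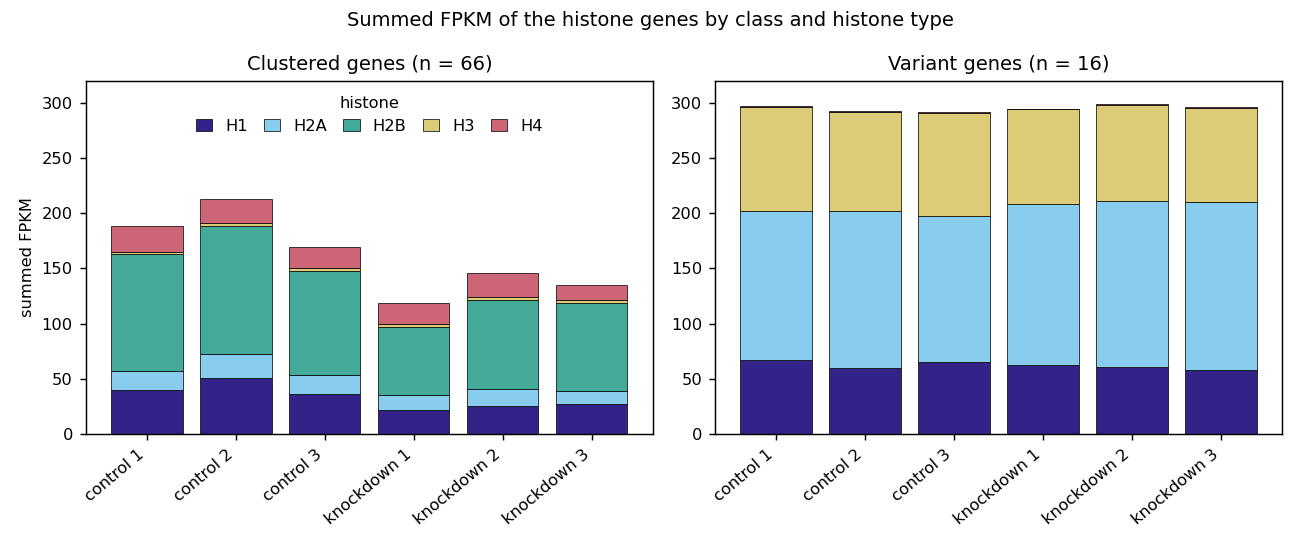
Summed FPKM of the 66 clustered genes (left) and the 16 variant genes (right) in each of the 6 libraries, stacked by histone type. The clustered bars reach 170 to 213 in the controls and 119 to 146 in the knockdown, and the variant bars 292 to 299 in all 6.

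Genes that act on histone messages were taken from a list of transcription and 3′ end processing factors. Of 19 tested members 5 fell (26.3%, against 12.5% of all tested genes) and 1 rose, with a median of -0.08. SLBP, the protein that binds the stem-loop, was at 34.9, 37.4 and 35.0 FPKM in control replicates 1 to 3 and 30.1, 31.8 and 30.6 in knockdown replicates 1 to 3. The groups did not overlap, and the mean of SLBP fell from 35.8 ± 1.46 to 30.8 ± 0.869 FPKM (log2 fold change -0.21, limma adjusted p = 0.0129), though the adjusted p was 0.0506 without knockdown replicate 3. The cleavage factor gene CSTF2, which serves both polyadenylated and histone messages, fell from 41.5 ± 0.502 to 35.2 ± 0.914 FPKM (log2 fold change -0.23, limma adjusted p = 0.00386). SRRT, whose protein joins the cap-binding complex to processing factors, fell by 0.16 on the log2 scale, and CASP8AP2, a component of histone locus bodies, by 0.26. SRRT was called in 11 of 14 alternatives and CASP8AP2 in 8 of 14. MIF4GD, which encodes a partner of SLBP in translation, rose from 3.11 ± 0.145 to 3.76 ± 0.228 FPKM (log2 fold change 0.21, limma adjusted p = 0.0434), a call made in 3 of 13 alternatives. NPAT, the activator of clustered histone genes, had a log2 fold change of -0.11 and was not called (limma adjusted p = 0.108).

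Histone chaperones that work with replication fell in part. Of 15 tested members 7 fell (46.7%, against 12.5% of all tested genes) and 0 rose, with a median of -0.14. CHAF1A, the large subunit of chromatin assembly factor 1, was at 27.5, 28.8 and 27.5 FPKM in control replicates 1 to 3 and 22.5, 22.0 and 23.4 in knockdown replicates 1 to 3. The groups of CHAF1A were clearly apart (log2 fold change -0.29, limma adjusted p = 0.00311). SUPT16H, a subunit of the FACT complex, fell from 46.2 ± 1.64 to 39.3 ± 0.175 FPKM (-0.23, limma adjusted p = 0.00542). RBBP7, which binds H4 in several complexes, fell by 0.21 and HAT1, which acetylates new H4, by 0.16 on the log2 scale, and HAT1 kept its call in 7 of 14 alternatives. Among 14 chaperones and exchange factors of variant histones 2 rose and 2 fell (14.3% each, close to the 12.6% and 12.5% of all tested genes). UBN1, of the complex that places H3.3, rose from 12.7 ± 0.0717 to 14.3 ± 0.0969 FPKM (limma adjusted p = 0.0149, called in 11 of 14 alternatives), and UBN2 rose by a log2 fold change of 0.18. ANP32E, which takes H2A.Z off chromatin, fell from 93.3 ± 0.435 to 86.5 ± 1.56 FPKM (limma adjusted p = 0.0344), and MIS18A, needed to load CENPA, fell by 0.25 on the log2 scale. The calls of UBN2 (2 of 13 alternatives), ANP32E (5 of 14) and MIS18A (7 of 14) were often lost. CENPA, the centromeric H3 variant outside the symbol rule, was at 12.6, 12.7 and 12.9 FPKM in control replicates 1 to 3 and 14.5, 12.9 and 14.7 in knockdown replicates 1 to 3 and was not called (limma adjusted p = 0.128).

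Genes expressed around the start of S phase moved with the clustered histones. Of 18 tested G1/S genes 15 fell (83.3%, against 12.5% of all tested genes) and 0 rose, with a median of -0.29. MCM2, a subunit of the replicative helicase, fell from 50.9 ± 0.982 to 37.2 ± 0.777 FPKM (log2 fold change -0.44, limma adjusted p = 0.000511). MCM2 lies on chromosome 3, where 43.9% of 718 tested genes were lower and the median log2 fold change was -0.19. The part of the chromosome in the value of MCM2 was not tested. PCNA, the sliding clamp, fell from 190 ± 2.95 to 146 ± 5.05 FPKM (-0.37, limma adjusted p = 0.000943). MCM6 fell by 0.43 and CDC45 by 0.39 on the log2 scale. Among 12 G2/M genes 1 rose and 1 fell (8.33% each, below the 12.6% and 12.5% of all tested genes). AURKA rose from 41.1 ± 0.725 to 49.7 ± 0.468 FPKM (limma adjusted p = 0.00167), and TOP2A fell from 105 ± 2.70 to 87.2 ± 1.35 FPKM (limma adjusted p = 0.00214). The median of the G2/M genes was 0.03. The share of cells in S phase was not measured, and the part of these genes in the histone result was not tested.

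RNAs that have no poly(A) tail were also looked up. Their values cannot show how far such RNA entered the libraries, because how shared reads were counted is not given. RN7SK, RMRP and TERC, for example, are each listed under different identifiers at overlapping positions. Of 10 symbols, 3 passed the filter, and RN7SK, RN7SL2, RMRP, RPPH1, RNU6ATAC, SCARNA2 and TERC were listed at 0 in every library. RN7SL1, the RNA of the signal recognition particle, was at 36.5, 21.8 and 25.9 FPKM in control replicates 1 to 3 and 12.4, 13.5 and 14.1 in knockdown replicates 1 to 3. All knockdown libraries were below all controls, and control replicate 1 was the highest. RN7SL1 fell from 28.1 ± 7.58 to 13.4 ± 0.870 FPKM (log2 fold change -0.99, limma adjusted p = 0.00705). SNORD3A and RNU4ATAC were not called (limma adjusted p = 0.512 and 0.328). They had only 10 to 34 and 0 to 3 fragments per library. The kit is named per the labels' protocols without saying how messages were selected. RN7SL1 moved in the same direction as the clustered histone genes, and its part in that result was not tested.

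**Figure D4:**
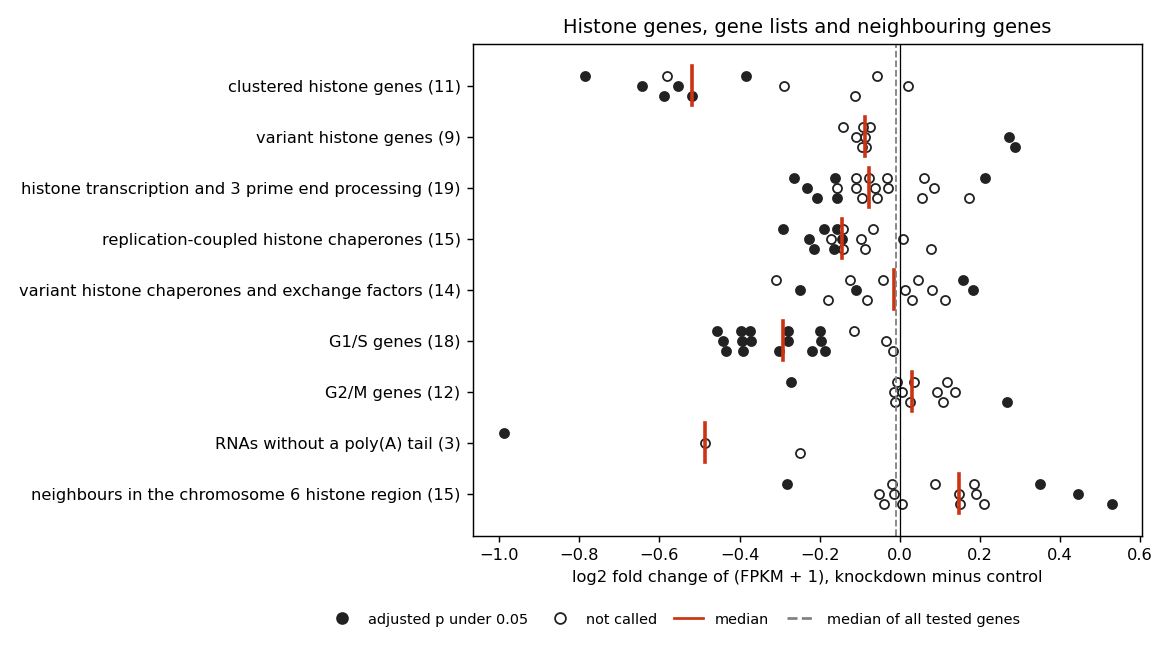
Log2 fold change of (FPKM + 1), knockdown minus control, of each tested gene in the clustered and variant histone groups, in 6 gene lists and among non-histone neighbours of the chromosome 6 histone genes; numbers in parentheses count the tested genes. Red bars are medians, -0.52 for clustered genes, -0.29 for G1/S genes and 0.15 for the neighbours, and the dashed line is the median of all tested genes, -0.01.

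The genes that lie between the histone genes of chromosome 6 moved in both directions, with 10 of the 15 tested values above 0 and 5 below. Of 15 tested non-histone genes in that region 3 were higher (BTN3A1, BTN3A2 and BTN3A3, of the butyrophilin family) and 1 was lower (ABT1), named here after their values were seen, with a median of 0.15. Over the whole of chromosome 6, 12.8% of 603 tested genes were lower and 12.4% higher, with a median of -0.01. The clustered genes that fell, H1-2, H2AC6, H2BC5, H2BC11, H2BC12 and H4C9, lie in the same region, and the difference between them and their neighbours was not tested.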

How the data were processed

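RNA-seq of 6 libraries was used, 3 per group. Per the labels' protocols, RNA was extracted with TRIzol, and libraries were made with a VAHTS Universal V6 kit and run on a NovaSeq instrument. Trim Galore 0.6.5-1, FastQC 0.11.9 and build GRCh38 were used, per the submitters' processing notes, which give no order. For aligner, counter, annotation and strand setting, nothing is given in the sources used here. FPKM were deposited by the authors and are already divided by depth and gene length; columns of per-sample values not used numbered 0.

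Genes with at least 1 FPKM in 3 libraries were tested on log2(FPKM + 1), which understates changes of low genes, with limma 3.58.1 in R 4.3.3 (trend on mean level, group as the only term, Benjamini-Hochberg adjustment over all 12191 tested genes, threshold 0.05). Summaries were made with Python 3.11.15, pandas 2.3.3 and NumPy 2.4.6, and figures with matplotlib 3.10.9. Whole fragments were recovered from FPKM, gene length and library total: 99.967% of tested genes gave numbers within 0.01 of a whole fragment in all 6 libraries, though 87.8% to 88.4% of low values did so within 0.05 in the depth check. They were used for precision and for an added limma voom test, which called 1892 genes higher and 1909 lower. On simulated data with 200 of 11780 genes changed between knockdown and control, 96% of changes of 1 and -1 were recovered, 88% of 0.5 and 74% of -0.5, with 13 false calls. The simulation gave all genes the same spread between replicates, taken from control genes with many fragments. Recovery was not measured separately for genes with few fragments or a wider spread, clustered histone genes among them.

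Every tested histone gene is named except 1 that is not reported here by itself. Of each list, up to 4 called genes with the smallest adjusted p and up to 2 in the other direction are named, and SLBP and CENPA always. NPAT, the non-polyadenylated RNAs, the markers and the neighbours with a call were named besides. The members and lists were chosen with earlier results of these data known. Alternatives were no filter, a filter of 5 FPKM, a pseudocount of 0.1, a replicate block, quantile normalization, median-of-ratios scaling, totals without mitochondrial genes (27.5% to 29.7% of FPKM) and each library left out.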

Additional observations from a re-analysis of the deposited data

How the results depend on the processing

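No called histone gene changed direction in any of the 14 alternatives, and each scaling moved the median of all genes by less than 0.1. Clustered genes called lower numbered 4 to 7 and variant genes called higher 2 when 1 library was left out. With no filter, 1013 genes were called lower in all (1525 with it), and of the list genes 20 were lower (31) and 2 higher (4). List genes called higher numbered 2 with a filter of 5 FPKM and 2 after quantile normalization. When 1 library was left out, 894 to 1352 genes were called higher and 964 to 1327 lower, and 1 to 3 list genes were higher and 18 to 24 lower. Both lowest counts of all genes came without knockdown replicate 3, and the cause was not tested beyond fewer samples. The voom test was chosen after seeing the data, and called 7 clustered genes lower, H2BC4 included.

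Titles share replicate numbers, but same-numbered libraries did not deviate together (correlations 0.0156, 0.057 and -0.0715), so they share only a number; not every library correlated best with its own number. With the number as a replicate block 1193 genes were called higher and 1146 lower, 6 clustered genes lower (without H2BC12, adjusted p = 0.0628, and with H2BC4, adjusted p = 0.0387), 2 variant genes higher, and 1 list gene higher and 22 lower. Of the 82 genes, 62 did not pass the filter and were not tested. Many of them rest on few fragments, though H3C6, with a longer gene model, had 23 to 40.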
